A study of Rattus norvegicus with 4 samples.

Results

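Thyrotrophs are the pituitary cells that make thyroid-stimulating hormone (TSH). In droplet single-cell data from the rat pituitary they were chosen here by their hormone RNA: a cell barcode was kept when it held 1000 or more unique molecular identifiers (UMIs, 1 per captured RNA molecule) from 500 or more genes, with no more than 20% of them mitochondrial, and it was counted as a thyrotroph when Tshb held at least 0.5% of its UMIs, Lhb under 0.3%, Prl under 20%, Gh1 under 10% and Pomc under 5%. This gave 104 thyrotrophs among 20381 kept cells. The levels of these 5 hormone genes chose the cells, so they are given as a description and are not tested.

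All animals were female Sprague Dawley rats, aged 75 days and cycling at random, with no treatment or genetic change. Glands from 30 rats were pooled and dissected into a posterior and an anterior library, and another 30 glands were dispersed whole as 1 suspension that was run on 2 lanes. Dispersal was by trypsin and EDTA, and libraries were made with the 10x Chromium 3' kit, version 3. No label gives a rat, a cycle stage or a position in the gland for a single cell, and the posterior library also held anterior lobe cell types.

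TSH is a dimer of a beta chain, the product of Tshb, and the alpha chain Cga, which thyrotrophs share with gonadotrophs. Thyrotropin-releasing hormone from the hypothalamus acts through the receptor Trhr to release TSH, and thyroid hormone feeds back through its receptor Thrb to lower transcription of both chains. The factors Pou1f1 and Gata2 act together on the Tshb promoter, and Pou1f1 is also needed by somatotrophs and lactotrophs. Thyrotrophs of the pars distalis, the main body of the anterior lobe, serve this thyroid axis. In the pars tuberalis, the sheath around the pituitary stalk, other cells make TSH, carry the melatonin receptor Mtnr1a and are known to lack the Trhr and Thrb control.

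The promoters of the 2 chains are shown because Tshb chose the cells and Cga was the most abundant RNA measured in them. Both windows are RefSeq sequence of the GRCr8 build, 250 bases before to 50 bases after the annotated gene start, 300 bases each, printed 5′ to 3′ on the strand of the gene. Capitals mark the TATA motif TATAAA and a GATA motif, which was searched as AGATAA and as AGATAG, and with a leading T as TGATAA and as TGATAG. The Tshb window lies at chr2:192918005-192918304 on the minus strand and the Cga window at chr5:54283090-54283389 on the plus strand.
Tshb: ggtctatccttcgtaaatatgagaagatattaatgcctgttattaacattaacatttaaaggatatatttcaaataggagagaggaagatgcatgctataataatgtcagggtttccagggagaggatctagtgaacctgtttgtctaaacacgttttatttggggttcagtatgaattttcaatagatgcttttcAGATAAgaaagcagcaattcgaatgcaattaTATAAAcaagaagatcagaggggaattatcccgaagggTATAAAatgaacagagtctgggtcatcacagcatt
Cga: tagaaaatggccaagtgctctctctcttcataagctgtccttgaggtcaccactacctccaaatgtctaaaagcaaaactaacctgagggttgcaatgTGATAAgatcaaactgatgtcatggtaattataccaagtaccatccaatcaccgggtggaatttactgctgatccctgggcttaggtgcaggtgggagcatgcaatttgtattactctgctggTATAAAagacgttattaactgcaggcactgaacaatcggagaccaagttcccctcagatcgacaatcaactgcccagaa
The Tshb window held AGATAA starting at -54 and TATAAA at -23 and at 15, counted from the gene start, and the Cga window held TGATAA at -152 and TATAAA at -29. Neither window held the searched POU1F1 motif ATGNATA, the cAMP motif TGACGTCA or the PITX motif TAATCC on either strand, which says only that these letters are not in these windows. Of 33469 such windows in the rat genome table, 30.3% held 1 of the GATA motifs on either strand, 14.2% held TATAAA, 9.88% held ATGNATA, 7.17% held TAATCC and 1.83% held TGACGTCA. A match is a description of the sequence and no evidence of binding.

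The posterior library gave 11 thyrotrophs among 3936 cells (0.279%, exact 95% binomial interval 0.140 to 0.5%) and the anterior library 38 among 5666 (0.671%, 0.475 to 0.919%). The whole-gland lanes gave 28 among 5714 and 27 among 5065, together 0.510% (0.385 to 0.664%). These intervals cover counting error only, and with 1 library per lobe the lobes were not tested against each other. Thyrotrophs held a median of 11517.5 UMIs (1048 to 27909). No barcode sequence of a thyrotroph occurred in a second library, although 35 sequences among kept cells did. A Scrublet doublet score above 0.25 was found in 4 thyrotrophs.

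The Tshb gate was narrow in number: 2655 kept cells had a Tshb UMI and 116 reached 0.5%. Of those, 6 were removed by the Prl limit, 5 by Gh1, 1 by Pomc and 0 by Lhb. The nearest cells below the gate had 0.377, 0.401, 0.403, 0.476 and 0.490% Tshb, and the nearest above it 0.505, 0.513, 0.613, 0.725 and 0.735%. Among the 104 cells Tshb ranged up to 19.7% of UMIs, with 25 cells under 2% and 21 at or above 10%. Median Tshb was 7.62% in posterior, 5.82% in anterior, 3.41% in lane 1 and 3.87% in lane 2 thyrotrophs.

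Mitochondrial UMIs were high in these cells, above somatotrophs, lactotrophs and corticotrophs. The median share was 12 to 14.2% over the 4 libraries in thyrotrophs, against 10.7 to 12.7% in gonadotrophs, 7.54 to 7.76% in somatotrophs, 5.12 to 5.91% in lactotrophs and 8.05 to 8.82% in corticotrophs. In 80 of the 104 cells the share was over 10%. Its part in the differences between classes was not tested.

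Of the other markers of the label, Cga, Nmu and Thy1 were found in most of these cells and Nts was not. Levels are given in CPM, the UMIs of a gene per 1000000 UMIs outside the 5 hormone genes of the gates. Cga stood at 102776 CPM in posterior, 136753 in anterior, 109469 in lane 1 and 124558 in lane 2 thyrotrophs, and had UMIs in all 104 cells. Nmu, which encodes the peptide neuromedin U, stood at 898 in posterior, 899 in anterior, 522 in lane 1 and 895 in lane 2, with UMIs in 78 cells. Thy1, a surface glycoprotein best known from neurons and thymocytes, stood at 752 posterior, 795 anterior, 900 in lane 1 and 895 in lane 2, with UMIs in 91 cells. Nts, which encodes neurotensin, went against the label and had UMIs in 2 of 104 cells: 94 in 1 anterior cell and 8 in 1 cell of lane 1, and 0 in posterior and lane 2 thyrotrophs. Nts is called below as higher than in all 4 classes, and that call rests on the 1 anterior cell. It was lost with DESeq2 (adjusted p 0.64), with a Tshb limit of 2% and without the preparation term (edgeR adjusted p 0.28).

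Of the marker lists of other cells, the melanotroph list was higher in thyrotrophs than in all other kept cells in 3 libraries. It stood at 112 CPM in anterior thyrotrophs against 8.79 in the other cells, at 70.6 against 20.8 in lane 1, at 119 against 20.6 in lane 2 and at 73.0 against 193 in posterior ones. These values came through Pcsk2, a prohormone convertase that thyrotrophs also carried, with Oacyl at 0 and Pax7 at 1 UMI. The Schwann list had 5 UMIs in anterior thyrotrophs (12.7 CPM against 5.52 in the other cells), and every remaining list was lower in thyrotrophs than in the other cells of each library. The folliculostellate list stood at 38.1 to 169 CPM, and S100b and Sox2, its defining genes, had UMIs in 5 cells together. The fibroblast list stood at 25.3 to 81.1 CPM through Dcn, with Col3a1 at 0 and Col1a1 at 1 UMI. The macrophage list stood at 371 CPM in posterior, 5.08 in anterior, 42.3 in lane 1 and 7.22 in lane 2 thyrotrophs, with C1qa in 1 cell and Tyrobp in 2. Lymphocyte markers were at 0 in every library, and the pituicyte list had 1 UMI. Gonadotroph markers other than Lhb had 12 UMIs in all, 9 of them posterior, with Fshb, the beta chain of follicle-stimulating hormone, at 1 UMI.

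Thyrotrophs were compared with 4 other hormone classes gated in the same way: 553 gonadotrophs, 4802 somatotrophs, 6493 lactotrophs and 1188 corticotrophs. Each class held its own hormone gene at or above the limit that thyrotrophs had to stay under (Lhb, Gh1, Prl or Pomc) and the other 4 gate genes below theirs, and corticotrophs also had no UMI of the melanotroph factor Pax7. A melanotroph without a captured Pax7 molecule passes this limit, and the share of such cells among the corticotrophs was not tested. UMIs were summed per class and preparation, with the anterior library as the dissected preparation and both lanes summed as the whole-gland preparation. The thyrotroph sums held 393577 UMIs outside the gate genes in the anterior library, 283460 in lane 1 and 277084 in lane 2, and the 178076 posterior UMIs stayed out of the fit. Calls rest on the edgeR quasi-likelihood test with Benjamini-Hochberg adjustment over 13321 genes, where a gene counts as called with an adjusted p under 0.05 and a log2 difference of 1 or more in either direction. With n = 2 preparations of pooled glands, p-values measure how far differences between classes vary from 1 preparation to the other, and not the spread between rats. The shared difference between preparations is fitted, and the spread is estimated over all 5 hormone classes together.

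Thyrotrophs stood above all 4 other classes in 128 genes (0.961% of those tested) and below all 4 in 26 (0.195%). Over gonadotrophs alone 855 genes were higher (6.42%) and 867 lower (6.51%). Over somatotrophs 899 were higher (6.75%) and 814 lower (6.11%), and over lactotrophs 980 were higher (7.36%) and 1098 lower (8.24%). With at least 3000 UMIs and at most 10% mitochondrial UMIs per cell, which kept 22 thyrotrophs, 11 of them with Alkal2 RNA, 44 genes were above and 6 below all 4 classes, and with lane 2 left out 85 were above and 17 below. The median log2 fold change of all genes tested was between -0.11 and -0.08 in the 4 comparisons.

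Kcnk9, above all 4 classes, encodes an acid-sensitive 2-pore potassium channel that sets resting potential. It stood at 84.2 CPM in posterior, 117 in anterior, 91.7 in lane 1 and 75.8 in lane 2 thyrotrophs, and between 0 and 5.81 in the 2 preparations of the 4 other classes, so no class overlapped. Its smallest log2 fold change was 4.21 ± 0.38 (SE) over gonadotrophs (edgeR adjusted p over the 4 comparisons 3.3e-06), and it had UMIs in 49 of 104 cells. Dpp10, an accessory subunit of A-type potassium channels, stood at 39.3 to 66.1 CPM over the 4 libraries and exceeded gonadotrophs by 3.12 ± 0.39 on the log2 scale (edgeR adjusted p 1.1e-04 over the 4 comparisons). Among the 22 cells of the stricter limits the smallest log2 fold changes were 1.82 for Kcnk9 (edgeR adjusted p 0.95) and 3.31 for Dpp10 (0.18), and both calls were lost. The cells with Alkal2, which made up 11 of those 22 cells and 13 of all 104, held 5.56% of the Kcnk9 UMIs and 0 of Dpp10.

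Both calretinin (Calb2) and calbindin (Calb1), cytosolic calcium-binding proteins of neurons, were called above all 4 classes, but in different cells. Calb2 stood at 39.3 posterior, 53.4 anterior, 42.3 in lane 1 and 39.7 in lane 2 CPM, with UMIs in 23 cells. Gonadotrophs of the 2 preparations held 0 Calb2 UMIs, which makes thyrotrophs at least 90.3-fold higher against a floor of 3 UMIs over the group, and its smallest log2 fold change was 5.03 ± 0.45 over somatotrophs (edgeR adjusted p 9.2e-06). Calb1 stood at 44.9 posterior, 96.6 anterior, 21.2 in lane 1 and 57.7 in lane 2, in 16 cells, of which 1 also had Calb2. Its log2 fold change over gonadotrophs was 3.46 ± 0.52 (edgeR adjusted p over the 4 comparisons 6.8e-04).

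Alkal2, a ligand of the receptor tyrosine kinases ALK and LTK, had the largest smallest fold change over the 4 classes. It stood at 67.4 CPM in posterior, 137 in anterior, 14.1 in lane 1 and 119 in lane 2 thyrotrophs, against at most 1.23 in any preparation of the 4 other classes. The ratio to gonadotrophs, which had 1 UMI, was 560 (counting interval 98.0 to 22363), and the log2 fold change over corticotrophs was 6.42 ± 0.48 (edgeR adjusted p over the 4 comparisons 5.5e-07). All 103 Alkal2 UMIs came from 13 cells. Of the genes above all 4 classes, 62 reached 50 CPM in at least 1 preparation and had the same direction in both. The 13 cells with Alkal2 held over 50% of the UMIs of 9 of these 62 genes, while holding 14.6% of all UMIs. Those 9 were Alkal2, Aox2, Gpx6, Serpinb1a, Calb1, Nmu, Gpr155, Ldhb and Fcgrt, and another 16 of the 62 had 0 UMIs in the 13 cells.

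Others of the 15 leading genes were Bpifa1, a secreted airway protein (at least 101-fold higher than in gonadotrophs, which had 0 UMIs), the aldehyde oxidase Aox2, the glutathione peroxidase Gpx6, the protease inhibitor Serpinb1a, the unnamed AC118957.1 and Gpr155. Their smallest log2 fold changes were 4.79 ± 0.39 for Bpifa1, 4.45 ± 0.94 for Aox2, 4.16 ± 0.86 for Gpx6, 3.81 ± 0.41 for Serpinb1a, 3.73 ± 0.26 for AC118957.1 and 2.64 ± 0.57 for Gpr155. AC118957.1 was the most even of these, at 225 CPM posterior, 193 anterior, 162 in lane 1 and 217 in lane 2, in 74 cells. Uneven between anterior and whole-gland thyrotrophs were Aox2 (50.8 and 7.14 CPM), Gpx6 (76.2 and 8.92) and Gpr155 (53.4 and 7.14). Without the 13 cells Aox2, Gpx6 and Gpr155 had 0 UMIs left, so none of their calls holds without them (the fitted value of Gpr155 was -6.81). Serpinb1a then stood at 0.47 ± 0.81 over gonadotrophs, and its call and that of Calb1 were lost. DESeq2 did not call Aox2 (adjusted p 0.073) or Gpx6 (0.92).

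**Figure D1:**
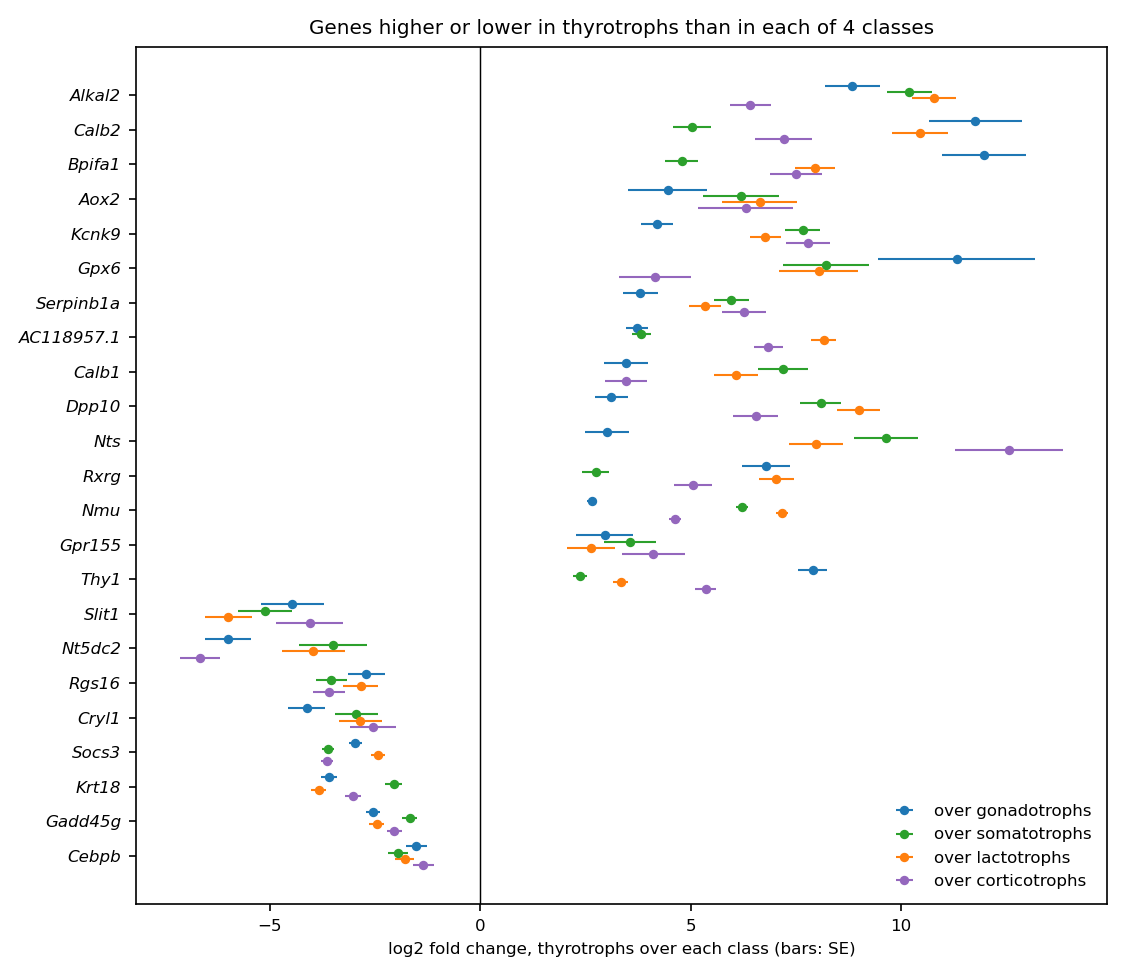
Log2 fold change (x axis) of thyrotrophs over gonadotrophs, somatotrophs, lactotrophs and corticotrophs for the genes above or below all 4 classes (y axis), with bars for the SE of the edgeR fit and n = 2 preparations. Points near 10 and beyond, such as Calb2 over gonadotrophs, have 0 to 3 UMIs in the other class and depend on the prior count of the fit.

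The genes below all 4 classes were led by Slit1, Nt5dc2, Rgs16, Cryl1, Socs3, Krt18, Gadd45g and Cebpb. Socs3, a feedback inhibitor of cytokine receptors, stood at 140 CPM in posterior, 35.6 in anterior, 49.4 in lane 1 and 36.1 in lane 2 thyrotrophs, against 199 to 655 in the preparations of the other classes. Its smallest difference was -2.43 ± 0.16 on the log2 scale, over lactotrophs (edgeR adjusted p 1.3e-07 over the 4 comparisons). Krt18, a keratin, stood at 16.8 to 36.1 CPM against 130 to 414 in the other classes, and its smallest difference was -2.06 ± 0.21, over somatotrophs (edgeR adjusted p 1.3e-05). Rgs16, which speeds the shut-off of G protein signals, had 8 UMIs in 104 cells and was below all 4 classes, with a smallest difference of -2.71 ± 0.44 on the log2 scale, over gonadotrophs. Among the 22 cells of the stricter limits Krt18 stood at -0.91 and Rgs16 at -2.74, and the calls of Krt18 (edgeR adjusted p 0.38) and Rgs16 (0.15) were lost.

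Cryl1, a lens crystallin relative that acts on sugars, differed by -2.54 ± 0.55 over corticotrophs and by more over the other classes. The transcription factor Cebpb differed by -1.35 ± 0.25 and the stress gene Gadd45g by -1.67 ± 0.18 as their smallest values. Both were uneven: Cebpb stood at 21.7 to 148 and Gadd45g stood at 14.4 to 253 CPM over the 4 libraries, with 38.5% of its UMIs in 1 cell. Slit1, an axon guidance cue, had 1 UMI in the fitted thyrotrophs, a ratio of 0.0512 to corticotrophs (0.00128 to 0.291) and of 0.0159 to lactotrophs (0.000401 to 0.0884). Nt5dc2 also had 1 UMI there, with a ratio of 0.0778 to somatotrophs (0.00196 to 0.436). The calls of Cryl1, Cebpb and Slit1 were lost with lane 2 left out (edgeR adjusted p 0.09, 0.37 and 0.057), and that of Nt5dc2 with either lane left out. Without the preparation term the calls of Cryl1 (edgeR adjusted p 0.19) and Nt5dc2 (0.085) were lost.

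Of the subunits of pituitary glycoprotein hormones, 3 were tested and 0 were above all 4 classes. Cga was shared with gonadotrophs: the thyrotroph sums held 136753 and 116927 CPM and the gonadotroph sums 108402 and 120422, a log2 fold change of 0.05 ± 0.19 (edgeR adjusted p 0.90). Over somatotrophs the log2 fold change of Cga was 9.86 ± 0.27. Fshb gave a ratio of 0.000461 to gonadotrophs (1.17e-05 to 0.00257), with 1 UMI. The list median over gonadotrophs was 0.05.

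Genes that trim and cap the sugar chains of these hormones showed 0 of 15 tested genes above all 4 classes, where 0.961% of all genes were. Over gonadotrophs 1 was above and 4 below, against 6.42% and 6.51% of all genes. The list median was -0.30 against -0.08 for all genes. Chst8, one of the enzymes that put sulfate on terminal GalNAc of lutropin and thyrotropin, had 2 UMIs in the fitted thyrotrophs, a ratio of 0.0346 to gonadotrophs (0.00417 to 0.126). Its relative Chst9 stood at 15.2 and 32.1 CPM in the 2 thyrotroph preparations against 16.3 and 16.4 in gonadotrophs, a log2 fold change of 0.47 ± 0.34 that did not pass (edgeR adjusted p 0.39). Mgat4a, which adds a branch to N-glycans, was higher than in gonadotrophs by 2.56 on the log2 scale, and the sialyltransferases St3gal4, St6gal1 and St6gal2 differed by -2.49, -1.85 and -2.04.

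Of 17 receptors for hypothalamic and local signals tested, 2 were above all 4 classes (Trhr and Sstr1), where 0.961% of all genes were. Over gonadotrophs 3 were above and 4 below, against 6.42% and 6.51% of all genes, and the others were not called. The list median was -0.11 (0.00 with genes at 0 UMIs set to their bound). Trhr stood at 78.6 CPM in posterior, 55.9 in anterior, 52.9 in lane 1 and 57.7 in lane 2 thyrotrophs. Lactotrophs, which also answer thyrotropin-releasing hormone, held 25.9 and 16.9 CPM and the 3 other classes at most 1.92, and no class reached the thyrotroph values. The log2 fold change of Trhr was 1.41 ± 0.25 over lactotrophs and 5.57 ± 0.44 over gonadotrophs (edgeR adjusted p over the 4 comparisons 0.0034).

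With every cell thinned to 3000 UMIs outside the gate genes, Trhr was found in 15% of 100 thyrotrophs (8.65 to 23.5%), 6.38% of lactotrophs, 0.563% of gonadotrophs, 0.272% of corticotrophs and 0.0683% of somatotrophs. The unthinned share was 43.3% of thyrotrophs, against 14.8% of lactotrophs and 0.723% of gonadotrophs, at median depths of 11517, 16635 and 12816 UMIs. The share of thyrotrophs thus lay above that of gonadotrophs, a class that should lack the receptor, at lower depth.

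Sstr1 and Sstr2, receptors for somatostatin, which inhibits TSH release, stood at 10.6 to 16.8 and 25.3 to 39.3 CPM over the 4 libraries. Sstr1 exceeded gonadotrophs by a ratio of 36.9 (8.22 to 340), and Sstr2 exceeded gonadotrophs by 4.11 ± 0.48 and somatotrophs by 1.01 ± 0.31 on the log2 scale, but was not called above all 4 classes together (edgeR adjusted p 0.16). Sstr3 had 0 UMIs in the fitted thyrotrophs and was at least 8.5-fold lower than in gonadotrophs. The gonadotroph receptor Gnrhr had 2 UMIs, a ratio of 0.0017 (0.000206 to 0.00616), and Crhr1, the corticotroph receptor, had 0, at least 57.6-fold lower than in corticotrophs.

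Of 17 genes of thyroid hormone action tested, 1 was above all 4 classes (Rxrg), where 0.961% of all genes were. Over gonadotrophs 4 were above and 0 below, against 6.42% and 6.51% of all genes, with a list median of 0.51. Thrb stood at 107 CPM in posterior, 135 in anterior, 173 in lane 1 and 141 in lane 2 thyrotrophs. Somatotrophs held 153 and 136 and lactotrophs 117 and 116, which overlap the thyrotroph values, with log2 fold changes of 0.20 ± 0.14 and 0.33 ± 0.14 that did not pass. Over gonadotrophs Thrb was higher by 2.06 ± 0.18 (edgeR adjusted p 2.7e-07). Rxrg, a retinoid receptor that pairs with thyroid hormone receptors and whose loss or activation is known to alter TSH in mice, stood at 56.2 posterior, 76.2 anterior, 63.5 in lane 1 and 46.9 in lane 2, against at most 12.1 in other classes, with a smallest log2 fold change of 2.75 ± 0.32, over somatotrophs (edgeR adjusted p 6.3e-05). Among the 22 cells of the stricter limits it stood at 1.60 and its call was lost (edgeR adjusted p 0.95). Of those 22 cells, 11 had Alkal2, and the cells with Alkal2 held 2.82% of the Rxrg UMIs of all thyrotrophs.

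Among 25 lineage transcription factors 1 was above all 4 classes, where 0.961% of all genes were. Over gonadotrophs 2 were above and 9 below, against 6.42% and 6.51% of all genes, with a list median of 0.00. The 1 above all 4 was Vdr, the vitamin D receptor, at 22.5 to 52.9 CPM and at least 1.84 ± 0.35 on the log2 scale above each class (edgeR adjusted p 0.0066). The 4 factors a thyrotroph is known for sorted by class. Pou1f1 stood at 337 posterior, 310 anterior, 459 in lane 1 and 336 in lane 2, against 12.9 and 22.7 in gonadotrophs and 481 and 541 in somatotrophs. Thyrotrophs were thus above gonadotrophs by 4.11 ± 0.15 and below lactotrophs, with a log2 difference of -1.16 ± 0.10. The difference of -0.37 ± 0.10 from somatotrophs (edgeR adjusted p 0.015) was under the size limit for a call.

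Gata2 stood at 157 posterior, 109 anterior and 148 in each lane, against 65.2 and 84.8 in gonadotrophs and at most 20.3 in the other classes. Its log2 fold change was 0.64 ± 0.16 over gonadotrophs and 3.07 ± 0.17 over somatotrophs. Isl1, a homeobox factor of the Cga-making lineage, stood at 129, 147, 180 and 177 CPM in posterior, anterior, lane 1 and lane 2 thyrotrophs against 137 in both gonadotroph sums (0.11 ± 0.17, edgeR adjusted p 0.70), and was higher than in somatotrophs by 6.09 ± 0.24. Foxl2, known to drive Cga and Fshb, was lower than in gonadotrophs (-1.07 ± 0.21) and higher than in somatotrophs (6.44 ± 0.36). Nr5a1, the gonadotroph factor, had 0 UMIs in the fitted thyrotrophs, at least 53.7-fold lower than in gonadotrophs.

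**Figure D2:**
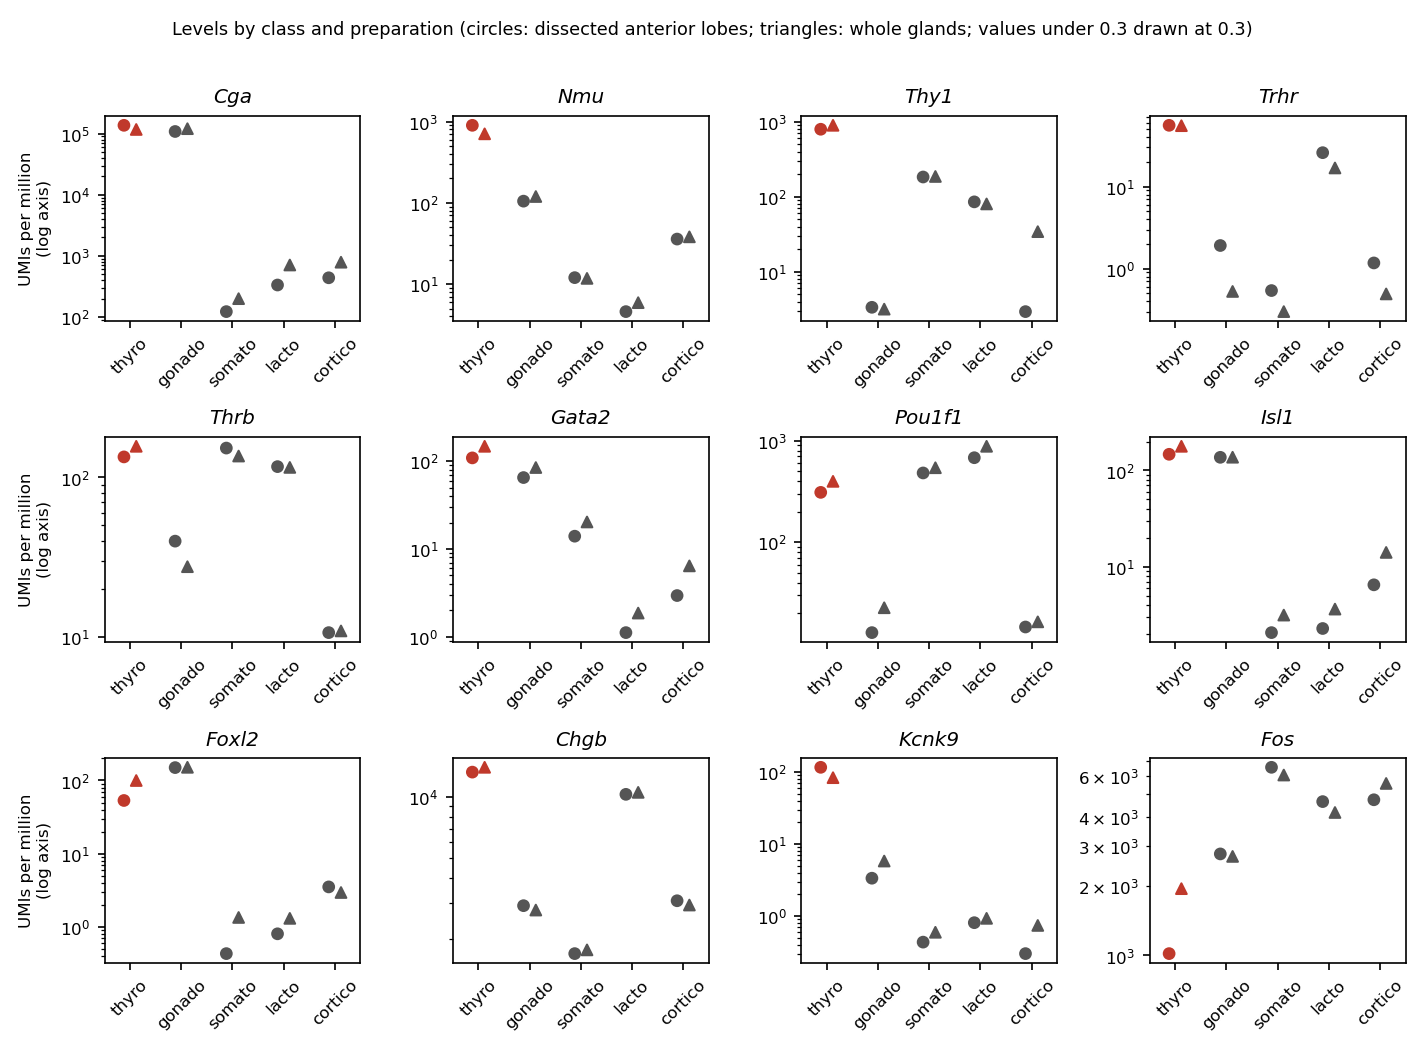
Level in CPM, outside the 5 gate genes (y axis, log scale) of 12 genes in thyrotrophs (red) and 4 other hormone classes (grey), with circles for dissected anterior lobes and triangles for whole glands. Cga, Isl1 and Gata2 stand high in thyrotrophs and gonadotrophs, Pou1f1 and Thrb in thyrotrophs, somatotrophs and lactotrophs, and Trhr in thyrotrophs and, lower, in lactotrophs.

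Of 13 neuropeptide genes tested, 3 were above all 4 classes (Nmu, Nts and Tac1), where 0.961% of all genes were. The call of Nts rests on 1 anterior cell. Nmu and Nts are also markers of the label, and the list was chosen with earlier results known, so the count is a description. Over gonadotrophs 4 were above and 3 below, against 6.42% and 6.51% of all genes, with a list median of 0.11. Nmu exceeded gonadotrophs, the next class, by 2.65 ± 0.11 on the log2 scale (edgeR adjusted p over the 4 comparisons 6.2e-10). Thinned to the common depth it was found in 55.0% of thyrotrophs, 23.6% of gonadotrophs, 11.2% of corticotrophs, 2.51% of somatotrophs and 0.998% of lactotrophs, and unthinned in 75.0% and 55.0% of thyrotrophs and gonadotrophs. Tac1, the gene of substance P and neurokinin A, stood at 50.5 posterior, 73.7 anterior, 120 in lane 1 and 101 in lane 2, in 23 cells, and exceeded somatotrophs, the next class at 40.7 and 26.2 CPM, by 1.72 ± 0.28 (edgeR adjusted p over the 4 comparisons 0.0015). Of the 23 cells with Tac1, 21 also had Nmu.

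Granule proteins and prohormone processing enzymes held 16 tested genes, of which 0 were called above all 4 classes, where 0.961% of all genes were. Over gonadotrophs 4 were higher and 2 lower, against 6.42% and 6.51% of all genes, with a list median of 0.47. Over somatotrophs 10 were higher and 0 lower (6.75% and 6.11% of all genes), and over lactotrophs 5 were higher and 1 lower (7.36% and 8.24%). Chgb, a granule matrix protein, stood at 8901 CPM in posterior, 13281 in anterior, 13769 in lane 1 and 14284 in lane 2 thyrotrophs, above gonadotrophs by 2.12 ± 0.06 and lactotrophs by 0.36 ± 0.05. Chga and Scg2, its relatives, ran the other way: they were lower than in gonadotrophs, with log2 differences of -3.01 ± 0.12 and -1.35 ± 0.07. Pcsk2 was higher than in each class by at least 1.67 ± 0.57 but did not pass over the 4 together (edgeR adjusted p 0.23), and its corticotroph level was uneven, 1.18 CPM in the dissected and 61.6 in the whole preparation.

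The counts of the remaining lists stand beside 0.961% of all genes above and 0.195% below all 4 classes, and 6.42% above and 6.51% below gonadotrophs. Of 22 exocytosis genes 0 were above or below all 4, with 2 above and 1 below gonadotrophs and a median of 0.06. Of 37 ion channels on the list, which does not hold Kcnk9 or Dpp10, 1 was above all 4, with 7 above and 6 below gonadotrophs and a median of 0.28. Of 30 genes of Gq, calcium and cAMP signals 2 were above all 4 (Calb1 and Calb2) and 1 below (Rgs16), with 6 above and 5 below gonadotrophs and a median of 0.22. Of 23 genes of protein folding in the endoplasmic reticulum 0 were above or below all 4, with 0 above and 1 below gonadotrophs and a median of -0.36. Of 26 growth factor and activin genes 1 was above all 4 (Fgfr1, a fibroblast growth factor receptor, by at least 1.11 ± 0.17), with 3 above and 8 below gonadotrophs and a median of -0.85. Of 11 imprinted genes 1 was below all 4 (Plagl1, a zinc finger factor, with a smallest difference of -1.28 ± 0.22), with 1 above and 3 below gonadotrophs and a median of -0.35.

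Surface molecules were, of the 15 lists, the one with the highest median over gonadotrophs, 1.01. Of 21 tested, 7 were above and 2 below gonadotrophs, against 6.42% and 6.51% of all genes. Above all 4 classes were Thy1 and Cadm1, where 0.961% of all genes were. Thy1 is a marker of the label, and this list too was chosen with earlier results known, so the count is a description. Thy1 exceeded gonadotrophs, at 3.35 and 3.17 CPM, by 7.90 ± 0.35 and somatotrophs by 2.36 ± 0.17 on the log2 scale (edgeR adjusted p over the 4 comparisons 3.4e-07). DESeq2 gave 2.38 as its smallest value and did not call it (adjusted p 0.23), and corticotrophs were uneven, at 2.94 CPM in the dissected and 34.2 in the whole preparation. At the thinned depth it was found in 83.0% of thyrotrophs, 43.3% of somatotrophs, 20.4% of lactotrophs, 11.4% of corticotrophs and 0.750% of gonadotrophs. Cadm1, an adhesion molecule of the immunoglobulin family, stood at 275, 366, 441 and 336 CPM in posterior, anterior, lane 1 and lane 2 thyrotrophs and exceeded each class by at least 1.36 ± 0.14 (edgeR adjusted p 9.9e-06).

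Immediate early and stress genes included many that were lower. Of 24 tested, 1 was below all 4 classes and 0 above, against 0.195% and 0.961% of all genes. Over gonadotrophs 10 were below and 0 above (6.51% and 6.42% of all genes), with a median of -0.81. Over somatotrophs 8 were below and 1 above (6.11% and 6.75%), and over lactotrophs 10 were below and 2 above (8.24% and 7.36%). Fos, the fast activity-induced factor, stood at 1078 CPM in posterior, 1019 in anterior, 2226 in lane 1 and 1667 in lane 2 thyrotrophs, against 2691 to 6557 in the preparations of the other classes, and the groups did not overlap. Its smallest difference was -1.01 ± 0.16 on the log2 scale, over gonadotrophs (edgeR adjusted p over the 4 comparisons 0.0014). Junb was lower than in gonadotrophs, somatotrophs and lactotrophs, with log2 differences between -1.14 and -1.10. Nr4a3, a nuclear receptor of the same response, went the other way over somatotrophs (1.96 ± 0.22) and lactotrophs (1.99 ± 0.22). Dispersal with trypsin precedes capture in every class, and its part in these levels was not tested.

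The single comparisons named the following largest genes beside those above. Above gonadotrophs were Bpifa1, Calb2, Gpx6, Alkal2, Thy1 and Tac1. Below them, with 0 UMIs in the fitted thyrotrophs, were Rrad, a small GTPase (at least 188-fold), the secreted phosphoprotein Spp1 (at least 180-fold), Defb24 (68.9), Nr5a1 (53.7), Cnga1 (51.0) and LOC688801 (23.1). Above somatotrophs were Alkal2, Cga, Nts, Gpx6, Dpp10 and Nov, a matricellular protein whose call was lost without the Alkal2 cells. Below somatotrophs were C2cd4a (at least 26.7-fold), Cdkn2a (18.8), Ffar4 (17.1) and Serpina3c (13.6), all at 0 UMIs, and with 1 UMI each Ghrhr, the receptor for growth hormone-releasing hormone (ratio 0.0124, 0.000314 to 0.0692), and Wnt10a (0.014, 0.000355 to 0.0782). Above lactotrophs were Alkal2, Calb2, Dpp10, AC118957.1, Gpx6 and Cga, and below them Irx6 (at least 42.2-fold), Grik1 (35.4), Mlf1 (32.6), RF00560 (23.0), Mfng (17.1) and LOC304725 (16.3), all at 0 UMIs.

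Among the thyrotrophs themselves, the 13 cells with an Alkal2 UMI differed in many genes from the 91 cells without one. This split was chosen after the values had been seen, so it is described and not tested. The 13 cells came from every library: 2 of 11 posterior, 6 of 38 anterior, 2 of 28 in lane 1 and 3 of 27 in lane 2, in all 12.5% (6.83 to 20.4%). They had a median of 13829 UMIs, against 10856 in the 91 cells, and doublet scores up to 0.217, against 0.532. Their mitochondrial share had a median of 8.49% (5.59 to 11.9%), against 13.6% (1.43 to 20%) in the other thyrotrophs.

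TSH chains were present in both sets. Cga stood at 156206 CPM in the 13 cells with Alkal2 and 115666 in the 91 cells without, and Tshb at 55650 and 76386. With the anterior library left out, Tshb stood at 29643 CPM with Alkal2 and 74263 without. The median Tshb share of a cell was 3.69% of its UMIs (0.513 to 13.3%) with Alkal2 and 4.5% (0.505 to 19.7%) without.

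Pou1f1 was nearly absent from the cells with Alkal2. It had 1 UMI in 1 of 13 cells (6.04 CPM), against UMIs in 84 of 91 cells (418 CPM), a ratio of 0.0145 (0.000365 to 0.081). In the posterior library and both lanes the cells with Alkal2 held 0 Pou1f1 UMIs, and those without held 421, 479 and 394 CPM. Pitx1, which marks the pituitary lineages in general, was on the contrary at 707 CPM with Alkal2 and 246 without. Isl1 stood at 133 and 164, Gata2 at 78.5 and 146 and Lhx3 at 48.3 and 39.3 CPM, with and without Alkal2. Without the anterior library Gata2 stood at 124 CPM with Alkal2 and 154 without, and Lhx3 changed sides, at 22.6 CPM with Alkal2 and 36.9 without. Foxl2 had 0 UMIs in the 13 cells and UMIs in 51 of the 91, at least 5.25-fold lower. Gonadotrophs, as given above, also held little Pou1f1, but more Foxl2 than all thyrotrophs together.

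The receptors of the thyroid axis split like Pou1f1. Trhr had 0 UMIs in the 13 cells with Alkal2 and UMIs in 45 of 91 without (at least 3.82-fold lower). Gonadotrophs also held little Trhr, at 1.92 CPM in the dissected and 0.528 in the whole preparation, but next to no Alkal2, at 0 and 0.264 CPM. Thrb had 1 UMI in 1 of 13 cells, against 70 of 91 cells, a ratio of 0.0367 (0.000924 to 0.208). Sstr2 and Vdr had 0 UMIs with Alkal2 and UMIs in 24 and 33 cells without. Mtnr1a, the melatonin receptor, was on the opposite side: 31 UMIs in 9 of 13 cells with Alkal2 (187 CPM) and 1 UMI in 1 of 91 cells without (1.03 CPM), a ratio of 181 (30.2 to 7377). The 2 cells with Alkal2 in lane 1 had no Mtnr1a UMI, and without lane 2 the level with Alkal2 was 112 CPM. Gonadotrophs also carried Mtnr1a, below the level with Alkal2. All thyrotrophs together were above gonadotrophs by less than the size limit for a call.

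Other markers split in the same way. Thy1 had UMIs in 3 of 13 cells with Alkal2 and 88 of 91 without (96.6 and 966 CPM). Of its 16 UMIs with Alkal2, 14 lay in 1 posterior cell, and its level with Alkal2 was 15.4 CPM without the posterior library and 169 without the anterior one. Cadm1 had UMIs in 0 and 82 cells (at least 23.5-fold lower). Nmu was present in both, in 13 of 13 cells at 3310 CPM and in 65 of 91 at 374 CPM, and was higher with Alkal2 in each of the 4 libraries. Igsf1, whose loss causes central hypothyroidism in people, had UMIs in 0 cells with Alkal2 and in 67 without. Calb2, Dpp10, Bpifa1 and Tac1 had 0 UMIs in the 13 cells, and AC118957.1, in 74 of the others, had 0 as well. Gonadotrophs of the dissected and whole preparations also held little Thy1 (3.35 and 3.17 CPM) and Tac1 (1.44 and 0.264), and 0 UMIs of Calb2 and Bpifa1. Their Nmu level, 105 and 120 CPM, was below that of both sets of thyrotrophs, and Cadm1 stood at 27.3 and 44.9.

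The cells with Alkal2 also differed in granule genes. Chgb stood at 3491 CPM in them and 14581 in the others, and Pcsk2 had 0 UMIs in 13 cells and UMIs in 55 of 91. Vgf, the gene of a neuropeptide precursor, had 173 UMIs in 12 of 13 cells (1045 CPM) and 1 UMI in the 91 others. The posterior cells with Alkal2 held the most, at 2519 CPM, and without that library the level with Alkal2 was 639 CPM. Resp18 stood at 37167 and 14191 CPM and Scg2 at 8994 and 4731, with and without Alkal2. In the class comparison above, gonadotrophs also stood below all thyrotrophs together in Chgb and above them in Scg2. Eya3, a transcriptional coactivator, stood at 139 CPM with Alkal2 and at 13.4 without. In lane 2 it was at 24.4 CPM with Alkal2 and 29.6 without, and it had 0 UMIs in the 2 cells of lane 1 with Alkal2. Without the anterior library it stood at 79.1 CPM with Alkal2, and without lane 2 at 8.21 CPM in the others. In sheep, Eya3 is known as a gene that long days switch on in the pars tuberalis.

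Across all genes, 30 had UMIs in at least 9 of the 13 cells with Alkal2 and in at most 10% of the others, and 25 had UMIs in at most 1 of the 13 and in at least 60% of the others. The first set included Espn, an actin-bundling protein (12 of 13 and 2 of 91 cells), the acetylcholine receptor subunit Chrna9 (9 and 0), the adenosine receptor Adora2b (10 and 2), Six2 (11 and 5) and Tspan8 (10 and 1). Vim, a filament protein of folliculostellate cells, was also in it, with UMIs in 9 of 13 and 6 of 91 cells. S100b and Sox2 had UMIs in 5 of the 104 cells, and these 5 cells held 26 of the 55 Vim UMIs. The second set included Timp2 (1 of 13 and 86 of 91), Rasd1 (0 and 75), Asb4 (0 and 71), Rit2 (0 and 61) and Tnr (0 and 58).

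A sum of 14 genes of the first set ran from 3 to 132 UMIs per cell (median 64) with Alkal2 and from 0 to 11 (median 0) without, so the ranges overlapped between 3 and 11. The 14 genes were picked on these same cells after their values had been seen, so the gap follows from the choice and tests nothing. The cell without Alkal2 at 11 such UMIs, a posterior one, also held 19 UMIs of 9 other genes. These 9 were picked in the same way, for UMIs in at most 1 cell with Alkal2, and not all belong to the second set. Another, a lane 2 cell of 1048 UMIs, held 4 such UMIs, with 1 UMI each of Calb1 and Vgf and 0 of Pou1f1, Thrb, Trhr and Thy1. The sum of those 9 genes ran from 0 to 1 UMIs (median 0) with Alkal2 and from 0 to 76 (median 23) without. Alkal2 was rare elsewhere: 60 of 20381 kept cells had a UMI, 13 of them thyrotrophs, 1 gonadotroph, 2 somatotrophs, 2 lactotrophs, 3 corticotrophs and 39 cells of no hormone class here. The strict limits of at least 3000 UMIs and at most 10% mitochondrial UMIs kept 11 of the 13 cells with Alkal2 and 11 of the 91 without.

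**Figure D3:**
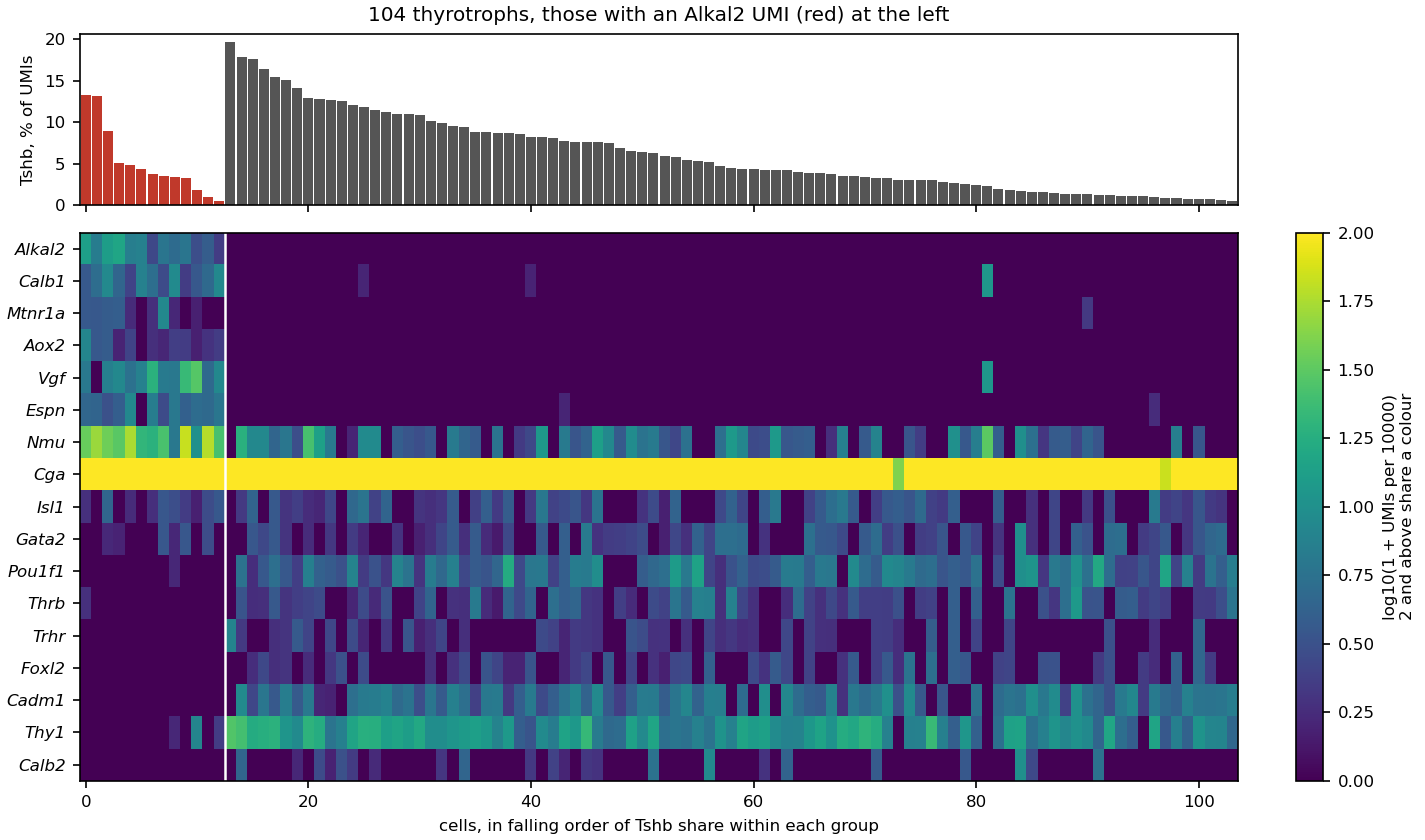
Upper panel, Tshb as a share of UMIs (y axis, %) in each of the 104 thyrotrophs (x axis), those with an Alkal2 UMI in red at the left. Lower panel, UMIs per 10000 on a log10(1 + value) colour scale for named genes (rows) in the same cells, where Pou1f1, Thrb, Thy1, Trhr and Cadm1 are dark in nearly all of the 13 cells at the left and Mtnr1a, Vgf, Calb1 and Aox2 in nearly all of the 91 others.

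Class comparisons were refitted without the 13 cells, an alternative added after the data had been seen. Then 122 genes were above all 4 classes, 104 of them among the 128, and 34 were below, 21 of them among the 26. Nmu remained above all 4 with a smallest log2 fold change of 1.61 ± 0.12, and Mtnr1a, at 0.93 ± 0.49 over gonadotrophs with the 13 cells, was at -3.90 ± 1.17 without them, when 1 UMI was left. Pou1f1 stood at -0.20 ± 0.11 over somatotrophs and 4.28 ± 0.15 over gonadotrophs, and Trhr at 1.59 ± 0.25 over lactotrophs.

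Background knowledge places TSH-making cells with Mtnr1a and without Trhr in the pars tuberalis. Gonadotrophs in these data also carried Mtnr1a and held little Trhr. The labels give no position for a single cell here and no pars tuberalis was dissected on its own, so whether the 13 cells came from there was not tested.

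Tshb itself ranged between 0.505 and 19.7% of a cell's UMIs, and other RNAs moved with it. Over 100 thyrotrophs thinned to one depth and 1766 genes, the highest Pearson correlations with Tshb were those of Cga (0.54), the signal peptidase subunit Sec11c (0.50), Krtcap2 (0.50) and Ostc (0.42), both of the glycan transfer complex, Scg2 (0.42), Ssr4 of the translocon (0.41), the chaperone Calr (0.41) and Chgb (0.39). The lowest were those of Junb (-0.44), Egr1 (-0.42) and Fos (-0.40), and these 3 were negative in each of the 4 libraries. Cga, Sec11c, Ssr4, Calr and Chgb were positive in each library, while Krtcap2, Scg2 and Ostc were negative among the posterior cells. The cells share libraries, and shares of 1 total press each other down, so these values are a description.

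In 3 bands of Tshb, under 2% (25 cells), 2 to 10% (58 cells) and at least 10% (21 cells), Fos stood at 3478, 1116 and 607 CPM. Cga stood at 72663, 121054 and 167738, Chgb at 8964, 11835 and 19451, and Trhr at 25.7, 60.6 and 86.2. Tac1 stood at 55.6, 38.9 and 243, with the step in the highest band. The bands are not groups of the study and were cut on the gate gene, so they are not tested.

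Within libraries Fos stood at 563 CPM in anterior cells at or above 2% Tshb and 3262 in those under 2%, at 1087 and 4741 in lane 1 and at 1390 and 2688 in lane 2. The 10 posterior cells at or above 2% stood at 1099, against 914 in the 1 cell under it. Median depth was 8546, 11677 and 14188 UMIs and the median mitochondrial share 14.3, 12.8 and 11.5% in the 3 bands, and their part in these levels was not tested.

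**Figure D4:**
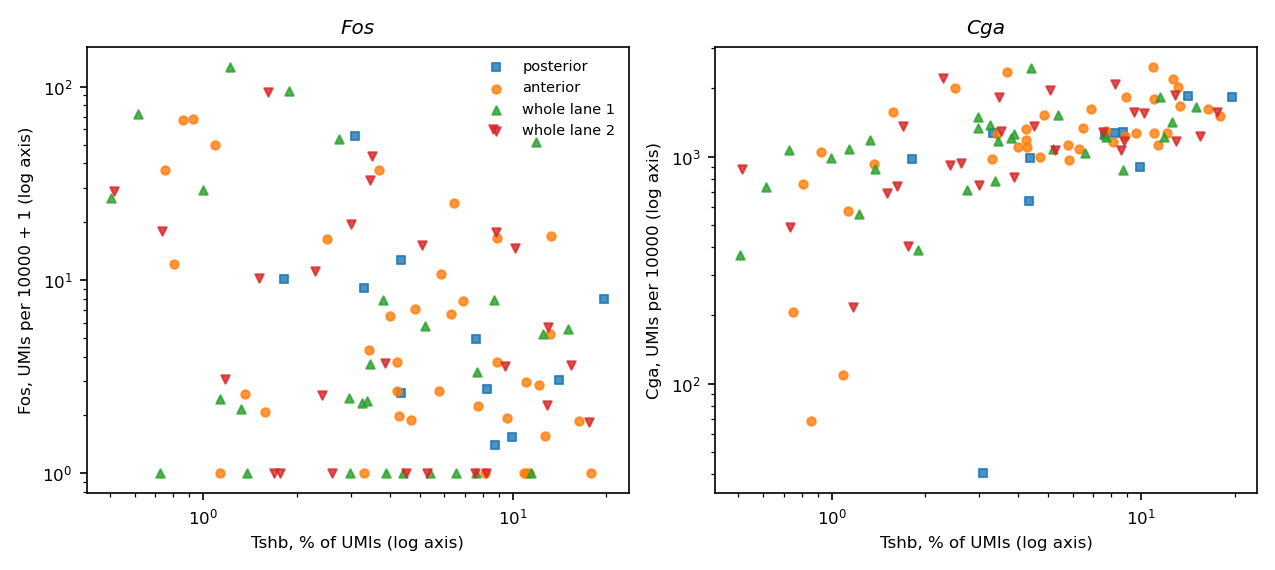
Each point is 1 of the 104 thyrotrophs, with Tshb as a share of UMIs (x axis, %, log scale) and UMIs per 10000 of Fos plus 1 or of Cga (y axes, log scale), marked by library. Cells low in Tshb reach the highest Fos, and Cga rises along the Tshb axis.

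Posterior and anterior thyrotrophs, 11 and 38 cells of 1 library each, were set side by side without a test. The largest ratios above 1 were those of Ctss (20 UMIs posterior and 0 anterior), Lyz2 (33 and 1), Cartpt (226 and 8), Cd74 (38 and 2), Cabp1 (18 and 2) and Hist1h1e (36 and 9, ratio 8.84, 4.18 to 20.9). Macrophage markers moved with them: 39 of 46 Cd74 UMIs, 36 of 45 Lyz2 UMIs and 20 of 22 Ctss UMIs over all thyrotrophs lay in 2 cells that also had C1qa, C1qb or Tyrobp. Of the 226 posterior Cartpt UMIs, 223 lay in 1 cell. On the other side were Nts (0 posterior and 94 anterior, in 1 cell), AABR07015042.1 (0 and 23), Prkce (1 and 24), Ifrd1 (1 and 22), Cd44 (1 and 21) and Gmps (1 and 21).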

How the data were processed

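The deposited files hold whole-number UMI counts per gene and cell barcode, made by the authors with Cell Ranger 3.1, per the submitters' processing notes, and joined into 1 matrix of 4 libraries, with a list of barcode names and one of gene names. Whether reads were equalised when the libraries were joined, the genome build and the annotation are not given in the sources used here. Cells and hormone classes were taken by limits on UMIs, genes, mitochondrial share and hormone shares, without clustering. The members and gene lists were chosen with earlier results of these data known, and the lists of other cell types served only to check the label.

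UMIs were summed per class and preparation into 10 sums without the 5 gate genes and fitted with edgeR 4.0.16 in R 4.3.3 (filterByExpr, TMM, terms for class and preparation, quasi-likelihood test, Benjamini-Hochberg adjustment). A gene is above or below all 4 classes when it passes against each, by the largest of its 4 p-values. The preparation term is the block that pairs classes from the same suspension of glands, and the 2 lanes of 1 suspension were summed. The fit was checked on simulated counts with known changes. DESeq2 1.42.0, other scalings, filters and gates were run as alternatives. Doublets were scored with Scrublet in scanpy 1.11.5 (expected rate 0.06, limit 0.25) and kept.

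Named genes were the 15 highest and 8 lowest against all 4 classes with 50 CPM or more in the higher group and 1 direction in both preparations, the 6 highest and 6 lowest of each single comparison, called members of the lists, and genes known for the thyrotroph. The level of 50 CPM had to be reached in at least 1 preparation. Likeness with Tshb was a Pearson correlation over cells thinned to 3000 UMIs. Promoters came from the RefSeq GRCr8 table, matched by symbol for both genes, and no coordinate of the deposited files was used. Bounds against a group at 0 use a floor of 3 UMIs over that group. Values of some genes that these rules select are not reported here.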

Additional observations from a re-analysis of the deposited data

Results flagged for a closer look

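A large share of barcodes with thyrotroph hormone RNA lay outside the kept cells. Of 188 barcodes that passed every hormone gate of a thyrotroph with enough UMIs and genes, 84 (44.7%) held over 20% mitochondrial UMIs and entered no comparison, against 44 of 597 (7.37%) for gonadotrophs, 471 of 5273 (8.93%) for somatotrophs, 253 of 6746 (3.75%) for lactotrophs and 117 of 1305 (8.97%) for corticotrophs. The 84 came from all libraries, 8 posterior, 29 anterior, 32 in lane 1 and 15 in lane 2. They had a median of 1.76% Tshb, 34.0% mitochondrial UMIs and 4507.5 UMIs. Among the 57 of them with 20 to 40% mitochondrial UMIs, Pou1f1 had UMIs in 45 and Thy1 in 48, while Alkal2, Mtnr1a, Aox2 and Vgf had UMIs in 0 of 57, which allows a share of up to 5.26% of such barcodes with a UMI.

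Just under the Tshb limit, 2 kept cells held 10 or more UMIs of the 14 genes found with Alkal2. A lane 1 cell at 0.377% Tshb had 34 such UMIs and 2 of the 9 genes found without Alkal2, and a posterior cell at 0.490% Tshb had 70 and 5. Neither had an Alkal2 UMI, and neither entered a comparison.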

How the results depend on the processing

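Of 866 values for 59 gene results, 831 kept their direction and their side of the threshold, 34 fell short of the threshold in the same direction and 1 turned. The 1 was Gpr155, at -6.81 (edgeR adjusted p 1) without the cells with Alkal2, where it had no UMI. A gene that was not tested under an alternative gave no value there, so it is outside the 866 and counts neither as kept nor as lost. Such gaps arose without the cells with Alkal2, under the stricter cell limits, with a lane left out and with the top thyrotroph per gene left out. Without the cells with Alkal2, 46 of the 59 results were kept, 3 fell short, 1 turned and the rest had no value. DESeq2 did not call Aox2 (adjusted p 0.073), Gpx6 (0.92), Nts (0.64) or Thy1 (0.23) above all 4 classes.

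Counts depended most on the cell limits, which also changed the number and mix of the thyrotrophs. The stricter limits kept 11 of the 13 cells with Alkal2 and 11 of the 91 without. The part of this change in the counts was not tested. With at least 3000 UMIs and at most 10% mitochondrial UMIs, 44 genes were above all 4 classes (28 of them among the 128) and 6 below, and 495, 695 and 802 were called over gonadotrophs, somatotrophs and lactotrophs. The share of thyrotrophs then was 0.0507% posterior, 0.295% anterior and 0.137% in whole glands, and a Tshb limit of 2% gave 0.362% in whole glands. Without the filter on low counts 55 genes were below all 4 classes. Leaving out 1 lane gave 85 to 97 genes above and 17 to 29 below, with lane 2 left out at the low end of both.

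Without the replicate block (the preparation term) 120 genes were above all 4 classes, 118 of them among the 128, and 22 below, 20 of them among the 26, and the counts over single classes stayed within 1.5 times. Among the 59 gene results that were followed, the block changed only the calls of Cryl1, Nt5dc2 and Nts, which were lost without it. Other genes named above, such as Trhr, Cadm1 and Fos, are outside the 59 and were not followed without the block. DESeq2 gave 160 and 18, the stricter gates 136 and 22, doublets left out 136 and 29, and a mitochondrial limit of 40%, added after the data had been seen, 164 and 35.

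Depth limits these cells: 104 cells and 2 preparations leave genes with few UMIs to single cells, and the median of a list over gonadotrophs moved at the bounds for receptors (0.00 in place of -0.11), growth factors (-0.80 in place of -0.85) and imprinted genes (-0.32 in place of -0.35).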

Other observations

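Substance P and TSH RNA were found together in a minority of thyrotrophs. The 23 cells with a Tac1 UMI came from every library, 3 posterior, 8 anterior, 4 in lane 1 and 8 in lane 2. All 23 also had Thy1, 10 had Calb2 and 0 had Alkal2. Their median Tshb share was 9.45% of UMIs, against 3.89% in the 81 thyrotrophs without Tac1, at median depths of 14188 and 9340 UMIs. Calb2 cells stood likewise at 7.71% Tshb, against 3.89% without it, while the 32 cells with Bpifa1 stood at 2.99%, against 4.95% without it. These are descriptions of single cells with few UMIs of each gene.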
